A study of Homo sapiens with 8 samples.

Results

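The aminoacyl-tRNA synthetases described here are 36 of the 25593 genes in an RNA sequencing table of 2 human acute myeloid leukaemia cell lines treated with cinobufagin. The set was proposed with earlier results of these data known, and its members were found in the table by symbol, as the nuclear genes that encode the charging enzymes of the cytosol (20 genes) and of the mitochondrion (16 genes, whose symbols end in 2). All 36 had a row under the older symbols that the table uses (CARS, MARS and so on), and all 36 passed the filter that left 12511 genes for testing, set at 1 FPKM or more in 2 or more of the 8 libraries. FPKM counts fragments per length of transcript relative to all mapped fragments, so it is a share of each library's RNA and does not show the amount of RNA per cell. In cultures measured in bulk, fewer expressing cells and less RNA per cell cannot be told apart.

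The study compared HL60, a promyelocytic line with an amplified MYC gene grown in 10% fetal bovine serum, and Kasumi-1, a myeloblastic line with the RUNX1-RUNX1T1 fusion grown in 20% serum, each grown for 24 h either untreated or with cinobufagin at 100 nM. Cinobufagin is a cardiotonic steroid of toad venom that inhibits the Na+/K+-ATPase, and the series title ties the drug to repression of genes associated with c-Myc. Each of the 4 groups (untreated HL60, treated HL60, untreated Kasumi-1, treated Kasumi-1) held 2 libraries. Nothing in the labels tells whether replicate libraries were grown apart, so the p-values reflect the spread of these libraries alone, which may be technical.

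An aminoacyl-tRNA synthetase joins an amino acid to the tRNA that carries its anticodon, the step at which the genetic code is read into protein. Most amino acids have a pair of nuclear genes, one for the cytosolic enzyme and one for an enzyme imported into mitochondria, while GARS and KARS each encode both forms from a single gene. Several cytosolic enzymes sit in a multi-synthetase complex held together by the scaffold proteins AIMP1, AIMP2 and EEF1E1. Many cytosolic synthetase genes are known targets of ATF4, the transcription factor of the amino acid response, which binds a composite C/EBP-ATF site, and MYC is known to bind E-box sites near the starts of genes for protein synthesis.

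The promoters were searched for both kinds of site, and the matched stretches are shown first because the results refer back to them. RefSeq promoter windows (GRCh38.p14, 250 bases before to 50 after a transcription start) matched 30 of the 36 genes, and DARS, LARS, VARS, YARS, AARS2 and VARS2 had no entry. Both strands were searched for the composite site, written TGATGNAA, and for the E-box CACGTG, and no match of one overlapped a match of the other. The composite site occurred in 7 of 16 cytosolic genes (43.8%), in 1 of 14 mitochondrial genes (7.14%) and in 1217 of all 27305 genes with windows (4.46%). Each line below gives the member, its position and strand, and up to 30 bases read 5′ to 3′ along the gene, with the match in capitals. TTNCATCA is the same composite site on the opposite strand.
CARS, chr11:3057407-3057436 (-): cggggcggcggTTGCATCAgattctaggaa
MARS, chr12:57488053-57488082 (+): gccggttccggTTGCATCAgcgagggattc
TARS, chr5:33440956-33440985 (+): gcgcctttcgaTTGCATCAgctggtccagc
GARS, chr7:30594834-30594863 (+): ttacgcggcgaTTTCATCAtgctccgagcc
AARS, chr16:70289675-70289704 (-): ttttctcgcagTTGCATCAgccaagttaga
IARS, chr9:92293692-92293721 (-): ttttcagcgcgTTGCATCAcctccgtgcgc
NARS, chr18:57621804-57621833 (-): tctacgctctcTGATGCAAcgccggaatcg
YARS2, chr12:32756076-32756105 (-): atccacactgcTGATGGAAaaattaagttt

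CARS, MARS, TARS, AARS and IARS held the same 8 letters, TTGCATCA. NARS held these letters on the opposite strand, and GARS differed from them inside the motif. The matched stretches of CARS, MARS, TARS, GARS, IARS and NARS overlapped an annotated UTR exon of their gene in GENCODE 29. That of AARS lay upstream, inside the DDX19B gene of the other strand, and that of YARS2 lay in no annotated gene. The E-box occurred in 3 of 14 mitochondrial genes (21.4%), in 1 of 16 cytosolic genes (6.25%) and in 8.78% of all genes. It is shown in capitals in the next 4 stretches, for every member whose window held it.
MARS2, chr2:197705347-197705374 (+): tgcgcctctcaCACGTGctgtcagaacg
CARS2, chr13:110706502-110706529 (-): gctgggatgcaCACGTGcttcgctaaca
EARS2, chr16:23557349-23557376 (-): agggagaagccCACGTGtgctattccat
IARS, chr9:92293867-92293894 (-): ggttcgttttcCACGTGgaggcgcaaaa

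A match of letters is a description of the window and not evidence of a bound factor. The E-box of EARS2 lay in an exon that it shares in position with UBFD1 on the other strand.

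From 10623 to 11371 genes had at least 1 FPKM in a library, and relative sequencing depth, taken from 480 low genes, ranged from 0.787 to 1.06 of that of untreated HL60 replicate 1. Read totals were not analysed here, so no counting interval could be set. Pearson's r between replicates was 0.967 to 0.974 across genes, which are not independent replicates, and the members differed between replicates by a median of 0.05 to 0.06 on the log2 scale. The lines matched their labels, since MYC averaged 768 FPKM in untreated HL60 and 309 in untreated Kasumi-1, and CD34 and RUNX1T1 were listed at 0 in HL60 and averaged 59.8 and 19.1 in untreated Kasumi-1. Of 13 markers of other cell types, 8 to 10 were at 0 in any library. Their summed level was 0.184 to 1.30 FPKM in HL60 and 73.2 to 78.8 in Kasumi-1, where EPCAM alone averaged 77.9 untreated and 74.1 treated. COL3A1, KRT19, MS4A1 and HBB averaged 0 in all 4 groups.

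In HL60, cinobufagin split the cytosolic synthetases into genes that rose and genes that fell, while nearly all changed mitochondrial synthetases fell. Of the 20 cytosolic genes, 8 rose, 11 fell and HARS did not pass the test, and of the 16 mitochondrial genes, 12 fell, YARS2 rose and HARS2, RARS2 and WARS2 did not pass. A gene was said to rise or fall at a limma Benjamini-Hochberg adjusted p under 0.05. The drug moved much of the transcriptome of HL60, with 73.6% of tested genes called, 36% rising and 37.6% falling. The share of cytosolic rises lay near that background, cytosolic falls lay above it, and the mitochondrial genes held more falls and fewer rises than it. The median log2 change was −0.33 over the cytosolic genes (range −2.72 to 1.43), −0.95 over the mitochondrial genes (−1.94 to 0.22) and −0.01 over all tested genes. A fall of at least 2-fold on the log2(FPKM + 1) scale was seen in 6 cytosolic and 7 mitochondrial genes, against 14.1% of all tested genes, and a rise of at least 2-fold in 2 cytosolic genes, against 11.9%.

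**Figure D1:**
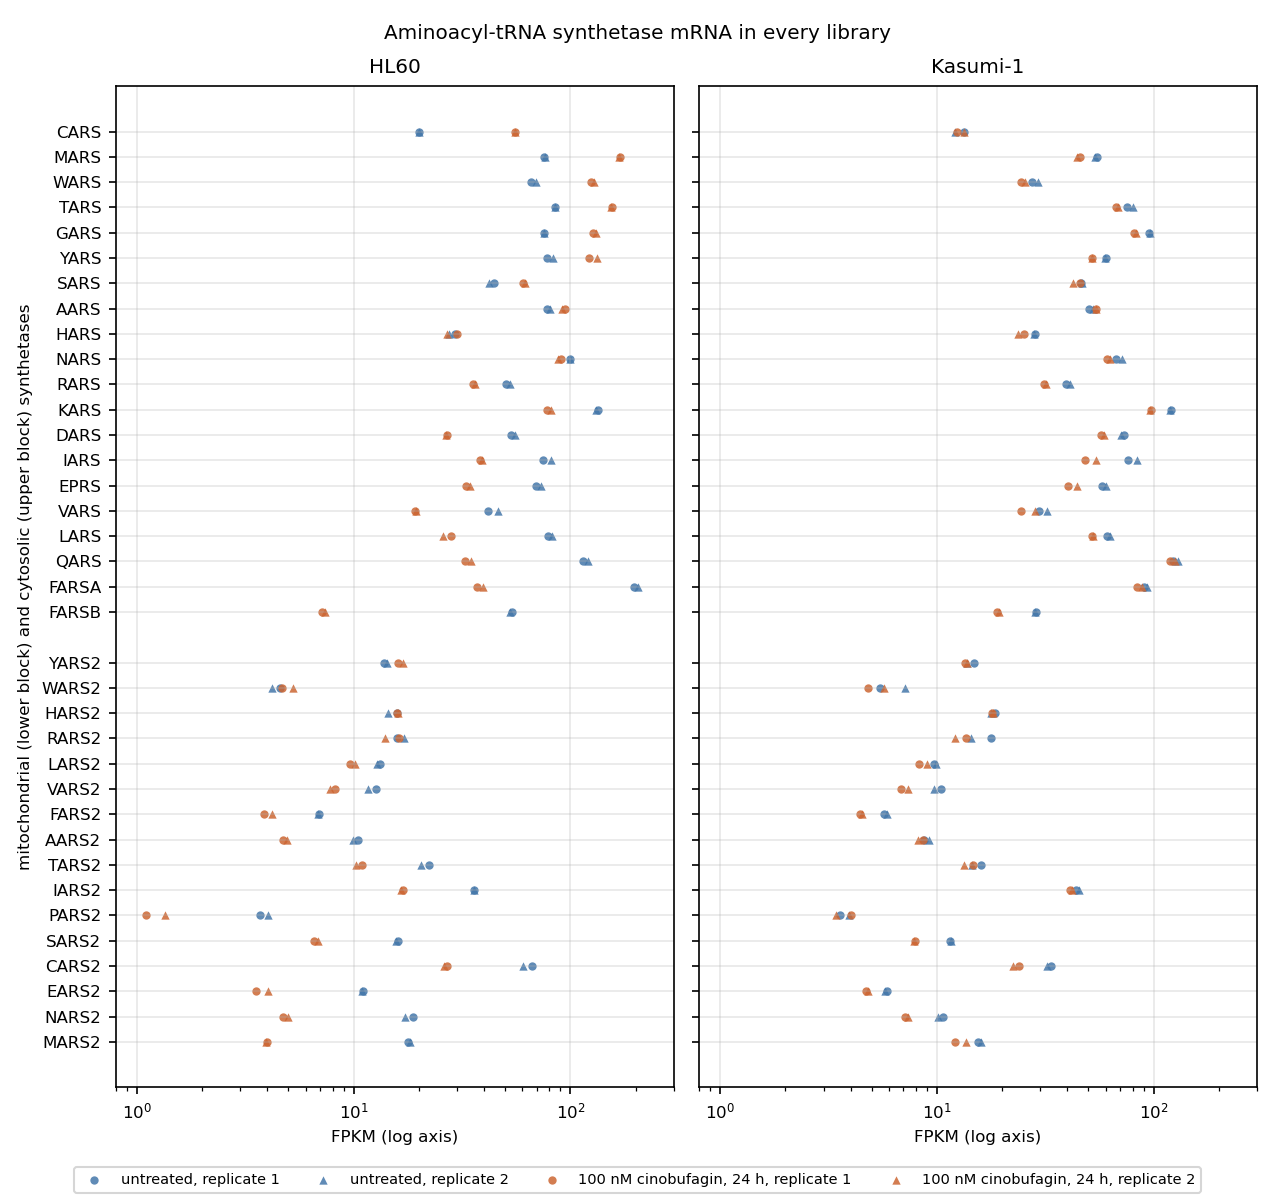
FPKM on a log axis (x axis) of each synthetase gene in HL60 (left) and Kasumi-1 (right), with a point for every library of the 4 groups. Cytosolic genes form the upper block and mitochondrial genes the lower block of each panel. In HL60 the treated points of FARSA, FARSB, QARS, LARS and most mitochondrial genes lie left of the untreated points. Those of CARS, MARS, WARS and TARS lie right of them.

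The largest rises among cytosolic genes were those of CARS, MARS, WARS and TARS. CARS, which charges cysteine, stood at 20.1 and 19.9 FPKM in the untreated libraries and 55.8 and 55.5 in the treated ones. The treated level was 2.78-fold the untreated one (log2 change 1.43, SE 0.06, limma adjusted p = 2.66e-06). MARS, which charges methionine and so also serves translation initiation, stood at 75.8 and 76.1 FPKM in the untreated libraries and 169 and 167 in the treated ones, 2.21-fold higher (log2 change 1.14, SE 0.04, limma adjusted p = 1.59e-06). These were the only members to rise by 2-fold or more, and their replicates differed far less than the groups. WARS, which charges tryptophan and is also induced by interferon, stood at 65.8 and 69.2 FPKM in the untreated libraries and 124 and 129 in the treated ones (log2 change 0.90, SE 0.05, limma adjusted p = 1.19e-05). TARS, the threonine enzyme, stood at 85.2 and 85.3 FPKM in the untreated libraries and 155 and 154 in the treated ones (log2 change 0.85, SE 0.05, limma adjusted p = 7.89e-06). In each of these 4 genes both treated libraries lay above both untreated ones, as was so in either direction for 34 of the 36 members and for 86.9% of all tested genes. Smaller rises were those of GARS (glycine, log2 change 0.77), YARS (tyrosine, 0.65), SARS (serine, 0.48) and AARS (alanine, 0.23, limma adjusted p = 0.00313).

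Exons of MARS overlap in position with exons of ARHGAP9 and DDIT3 on the other strand. In HL60 these neighbours also rose, ARHGAP9 from 21.5 to 46.6 FPKM and DDIT3 from 26.1 to 42.7. The strand setting of the counting was not known here, so the neighbours' part in the MARS value was not tested, and 10 of the 36 members overlap a protein-coding exon of the other strand in GENCODE 29.

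The largest falls were in both subunits of the phenylalanine enzyme, which works as a tetramer of FARSA and FARSB. FARSB stood at 53.95 and 52.6 FPKM in the untreated libraries and 7.13 and 7.38 in the treated ones, a 7.35-fold lower level (log2 change −2.72, SE 0.05, limma adjusted p = 1.5e-07). FARSA, the most abundant synthetase mRNA of untreated HL60, stood at 197 and 205 FPKM in the untreated libraries and 36.9 and 39.6 in the treated ones, 5.26-fold lower (log2 change −2.37, SE 0.06, limma adjusted p = 3.42e-07). Untreated FARSA was thus well above FARSB per length of transcript, and both fell. QARS, the glutamine enzyme, stood at 114 and 121 FPKM in the untreated libraries and 32.7 and 34.6 in the treated ones (log2 change −1.77, SE 0.06, limma adjusted p = 1.06e-06). LARS, the leucine enzyme that also acts as a leucine sensor for mTORC1, stood at 79.1 and 82.6 FPKM in the untreated libraries and 27.99 and 25.8 in the treated ones (log2 change −1.55, SE 0.05, limma adjusted p = 1.26e-06). No treated library of these 4 genes reached an untreated one. VARS (−1.15), EPRS (−1.06), IARS (−0.999), DARS (−0.99), KARS (−0.72), RARS (−0.50) and NARS (−0.16) fell by less on the log2 scale. The NARS call rested on a small change and was lost in 4 of 16 alternative fits (limma adjusted p 0.00599 to 0.117). HARS, the histidine enzyme, stood at 29.4 and 27.6 FPKM in the untreated libraries and 29.8 and 26.8 in the treated ones (log2 change −0.01, SE 0.07, limma adjusted p = 0.912), so its groups overlapped.

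The 8 enzymes of the multi-synthetase complex moved mostly down in HL60. DARS, EPRS, IARS, KARS, LARS, QARS and RARS fell and MARS rose, with a median log2 change of −0.996. Over all tested genes 37.6% fell and 36% rose. Of the 12 cytosolic genes outside the complex, 7 rose, 4 fell (FARSA, FARSB, NARS and VARS) and HARS did not pass, with a median of 0.36. Falls outside the complex were thus about as frequent as over all tested genes. By a grouping from textbook knowledge, drawn up with earlier results of these data known, 12 cytosolic genes are known ATF4 targets. Of these 8 rose while EPRS, IARS, LARS and NARS fell, with a median of 0.57. Of the other 8 cytosolic genes none rose, 7 fell and HARS did not pass, with a median of −1.07. All 8 cytosolic genes that rose were among the known ATF4 targets. As the list was not blind to these data, this split is a description and the part of ATF4 was not tested. The structural class of the enzyme did not part the genes in this way, since 4 rose and 5 fell among the 9 of class I, and 4 rose and 5 fell among the 10 of class II. Rises in both classes were near the share over all tested genes.

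Set beside the promoter stretches shown above, 5 of the 7 cytosolic genes with a composite site rose in HL60 (CARS, MARS, TARS, GARS and AARS) and IARS and NARS fell. Of the 9 cytosolic genes with windows that lacked those letters, SARS and WARS rose, 6 fell and HARS did not pass. YARS, which rose, and DARS, LARS and VARS, which fell, had no window. Over all tested genes 36% rose and 37.6% fell, and no such share was computed for all genes that hold the letters. YARS2, the sole mitochondrial gene with the letters, was also the sole mitochondrial gene that rose. That rise was small (log2 change 0.22) and was lost after quantile normalization. MARS2, CARS2 and EARS2, the mitochondrial genes with an E-box, fell, as did 7 of the 11 mitochondrial genes whose windows lacked it. IARS, which held both motifs, fell.

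The mitochondrial genes were led down by MARS2 and NARS2. MARS2, whose enzyme charges the mitochondrial methionine tRNA, stood at 17.7 and 18.2 FPKM in the untreated libraries and 3.99 and 3.94 in the treated ones, 4.54-fold lower (log2 change −1.94, SE 0.07, limma adjusted p = 1.19e-06). NARS2, for asparagine, stood at 18.7 and 17.3 FPKM in the untreated libraries and 4.73 and 4.98 in the treated ones (log2 change −1.70, SE 0.06, limma adjusted p = 1.81e-06). The methionine enzymes of the cytosol and the mitochondrion thus moved in opposite directions. EARS2, for glutamate, stood at 11.04 and 10.98 FPKM in the untreated libraries and 3.55 and 4.04 in the treated ones (log2 change −1.33, SE 0.07, limma adjusted p = 6.02e-06). CARS2, for cysteine, was the most abundant mitochondrial member in untreated HL60 and stood at 66.5 and 60.1 FPKM in the untreated libraries and 26.96 and 26.1 in the treated ones (log2 change −1.22, SE 0.06, limma adjusted p = 6.45e-06). In all 4 genes the treated libraries lay below the untreated ones. PARS2 (−1.13), SARS2 (−1.13), IARS2 (−1.05), TARS2 (−0.95), AARS2 (−0.94), FARS2 (−0.65), VARS2 (−0.55) and LARS2 (−0.36) also fell on the log2 scale. PARS2, at 3.69 and 4.01 FPKM untreated and 1.10 and 1.35 treated, was the lowest expressed member, and its log2(FPKM + 1) change understates the change of so low a gene.

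YARS2, for tyrosine, stood at 13.8 and 14.2 FPKM in the untreated libraries and 16.04 and 16.9 in the treated ones (log2 change 0.22, SE 0.06, limma adjusted p = 0.013). This single mitochondrial rise was lost without untreated replicate 1, without treated replicate 2 and after quantile normalization, with limma adjusted p of 0.00494 to 0.0735 over the alternative fits. HARS2 (0.08, limma adjusted p = 0.286), RARS2 (−0.12, 0.387) and WARS2 (0.15, 0.348) did not pass. SARS2 overlaps the mitochondrial ribosomal protein gene MRPS12 on the other strand, which went from 55.01 to 22.9 FPKM in HL60, and its part in the SARS2 value was not tested.

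Summed over the compartments, the cytosolic genes held 1519 and 1559 FPKM in the untreated HL60 libraries and 1363 and 1381 in the treated ones. The mitochondrial genes held 285 and 274 FPKM untreated and 154 and 153 treated. The mitochondrial sum thus lost a larger share of its untreated level than the cytosolic sum, whose rises and falls partly offset each other. The cytosolic median in HL60 was 75.3 and 75.6 FPKM untreated and 47.1 and 47.5 treated, and the mitochondrial median was 14.8 and 14.3 untreated and 7.38 and 7.30 treated. The difference between the compartments' median log2 changes was 0.61 and stayed positive, from 0.45 to 0.70, in every alternative fit.

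The 17 pairs of genes for the same amino acid were compared as ratios within each library. EPRS was paired with both EARS2 and PARS2, and FARS2 with both FARSA and FARSB, so the pairs are not all independent. In HL60 the ratio of cytosolic to mitochondrial FPKM was higher in both treated libraries than in both untreated ones for 10 pairs. It was lower for 5 and overlapped for HARS with HARS2 and IARS with IARS2. Single genes did not overlap for 86.9% of all tested genes, and no such share was computed for ratios. The median change of the log2 ratio was 0.46 (range −2.11 to 3.33). MARS over MARS2 stood at 4.27 and 4.17 untreated and 42.5 and 42.4 treated. CARS over CARS2 stood at 0.302 and 0.331 untreated and 2.07 and 2.13 treated, so the mitochondrial transcript was the higher one before treatment and the lower one after it. TARS, SARS, NARS and AARS also gained on their mitochondrial counterparts, by 1.87, 1.73, 1.72 and 1.32 in log2 ratio. The opposite shift was seen for FARSB over FARS2, at 7.82 and 7.66 untreated and 1.85 and 1.75 treated, and for FARSA over FARS2 and LARS over LARS2, with log2 ratio changes of −1.62 and −1.20.

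**Figure D2:**
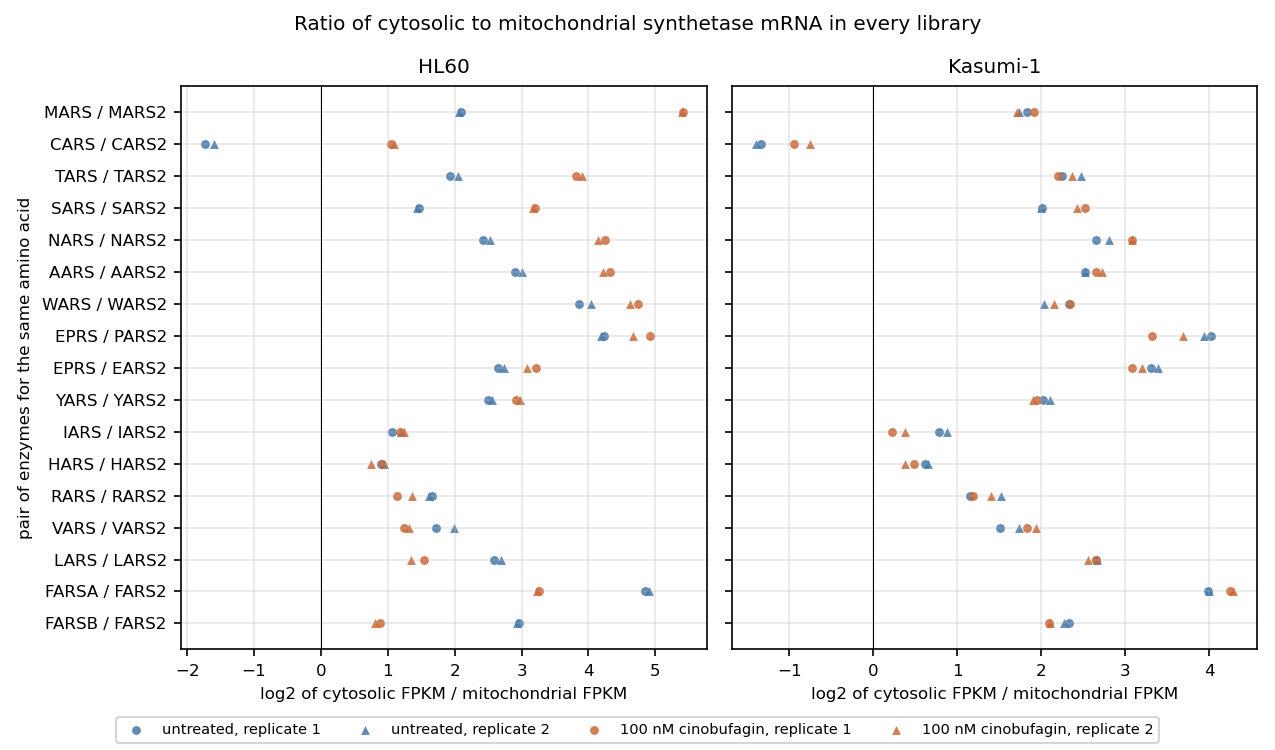
Log2 ratio of cytosolic to mitochondrial FPKM (x axis) for 17 pairs of enzymes (y axis), with a point for every library, HL60 in one panel and Kasumi-1 in the other. In HL60 the treated points of MARS / MARS2 and CARS / CARS2 lie furthest right of the untreated ones and those of FARSB / FARS2 furthest left, while in Kasumi-1 the points of a pair lie close together.

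In Kasumi-1 the members moved little and none of them rose. Of the cytosolic genes 11 fell and 9 did not pass, and of the mitochondrial genes 7 fell and 9 did not pass. Among all tested genes 26.3% were called in this line, 10.1% rising and 16.2% falling, so falls were more frequent among the members than over the table. The median log2 change was −0.21 over the cytosolic genes (range −0.63 to 0.08), −0.23 over the mitochondrial genes (−0.49 to −0.0018) and −0.04 over all tested genes. No member changed by 2-fold, while over all tested genes 0.32% rose and 0.256% fell by that much. The treated and untreated libraries did not overlap for 29 of the 36 members and for 61.5% of all tested genes.

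IARS, which charges isoleucine, fell the most, from 75.99 and 83.8 FPKM to 48.2 and 54.5 (log2 change −0.63, SE 0.08, limma adjusted p = 0.0041). FARSB stood at 28.7 and 28.4 FPKM in the untreated libraries and 18.95 and 19.4 in the treated ones (log2 change −0.55, SE 0.05, limma adjusted p = 0.00158). EPRS, a fused enzyme for glutamate and proline, stood at 58 and 60.4 FPKM in the untreated libraries and 40.2 and 44.1 in the treated ones (log2 change −0.48, SE 0.06, limma adjusted p = 0.00386). In these genes both treated libraries lay below both untreated ones. RARS, for arginine, stood at 39.6 and 41.1 FPKM in the untreated libraries and 31.2 and 32.05 in the treated ones (log2 change −0.34, SE 0.05, limma adjusted p = 0.00472). DARS, GARS, KARS, LARS, MARS, NARS and TARS also fell, by 0.17 to 0.31 on the log2 scale. The NARS call was lost in 12 of 16 alternative fits and the LARS call in 5 (limma adjusted p 0.0209 to 0.189 and 0.016 to 0.105). Of the 8 complex members 7 fell and QARS did not pass, with a median of −0.31, against 4 of the 12 genes outside the complex, with a median of −0.19. Of the known ATF4 targets 7 of 12 fell and none rose (median −0.20), and of the other cytosolic genes 4 of 8 fell (median −0.27). Over all tested genes 16.2% fell and 10.1% rose in this line.

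Among mitochondrial genes SARS2, for serine, stood at 11.5 and 11.6 FPKM in the untreated libraries and 7.96 and 7.87 in the treated ones (log2 change −0.49, SE 0.05, limma adjusted p = 0.00245), and its overlapping neighbour MRPS12 went from 45.5 to 30.9 FPKM. CARS2 stood at 33.6 and 32.1 FPKM in the untreated libraries and 23.8 and 22.5 in the treated ones (log2 change −0.49, SE 0.06, limma adjusted p = 0.00437). NARS2 stood at 10.7 and 10.2 FPKM in the untreated libraries and 7.17 and 7.38 in the treated ones (log2 change −0.47, SE 0.06, limma adjusted p = 0.00487). These genes had also fallen in HL60, by more. VARS2, for valine, stood at 10.4 and 9.69 FPKM in the untreated libraries and 6.85 and 7.34 in the treated ones (log2 change −0.45, SE 0.07, limma adjusted p = 0.00736), and EARS2, FARS2 and MARS2 fell by 0.24 to 0.31. The calls of these last 3 were lost in 11, 5 and 4 of 16 alternative fits (limma adjusted p 0.0333 to 0.149, 0.0108 to 0.08 and 0.013 to 0.109), and that of VARS2 in 1 (0.00503 to 0.0551). With the 4 Kasumi-1 libraries fitted alone 6 cytosolic and 3 mitochondrial genes fell, and the falls over all tested genes dropped likewise, from 2026 to 642. Without 1 Kasumi-1 library at a time the cytosolic count went as low as 7 (without untreated replicate 2 or treated replicate 1) and the mitochondrial count as low as 4 (without untreated replicate 1, untreated replicate 2 or treated replicate 1), while the falls over all tested genes numbered 1019 to 1314.

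The sums went in Kasumi-1 from 1219 and 1253 to 1042 and 1069 FPKM over the cytosolic genes and from 232 and 227 to 194 and 194 over the mitochondrial genes. The ratio of cytosolic to mitochondrial FPKM was higher in both treated libraries for 6 pairs, lower for 6 and overlapping for 5. Single genes did not overlap for 61.5% of all tested genes. The median log2 ratio change was −0.04 (range −0.53 to 0.52). CARS over CARS2 had the largest gain, at 0.396 and 0.379 untreated and 0.521 and 0.594 treated, and IARS over IARS2 the largest loss, at 1.72 and 1.85 untreated and 1.17 and 1.30 treated. The median log2 changes of the compartments differed by 0.020, and the sign of that difference turned without untreated replicate 1 or treated replicate 1. The shift between compartments measured in HL60 was not seen in Kasumi-1.

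**Figure D3:**
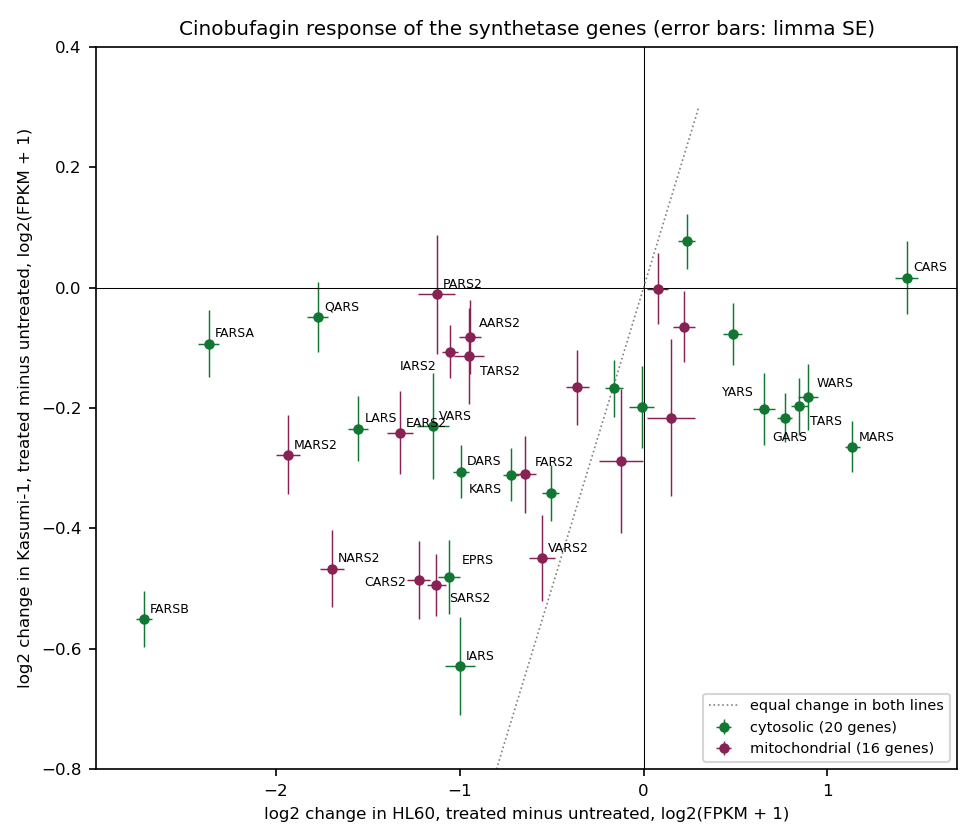
Log2 change with cinobufagin in HL60 (x axis) against that in Kasumi-1 (y axis, a finer scale), each with its limma SE, for 20 cytosolic and 16 mitochondrial genes. The HL60 changes run from −2.72 to 1.43 and those in Kasumi-1 from −0.63 to 0.08, so most points lie far from the dotted line of equal change.

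The difference between the lines was tested on the changes themselves, as the Kasumi-1 change minus the HL60 change. Of the cytosolic genes 9 had a higher and 7 a lower change in Kasumi-1, and of the mitochondrial genes 10 had a higher change and YARS2 a lower one, at a limma adjusted p under 0.05. Over all tested genes 63.1% were called, 30.1% higher and 33.1% lower. FARSA differed most, by 2.27 (SE 0.08, limma adjusted p = 4.6e-06), since it fell in HL60 and stood at 90.01 and 93.7 FPKM untreated and 83.9 and 88.2 treated in Kasumi-1. FARSB followed with 2.17 (limma adjusted p = 2.68e-06). QARS differed by 1.72 (limma adjusted p = 1.37e-05) and stood at 123 and 129.9 FPKM untreated and 119 and 125 treated in Kasumi-1, so its groups overlapped there. CARS differed by −1.41 (limma adjusted p = 3.26e-05), and its Kasumi-1 libraries, at 13.3 and 12.2 FPKM untreated and 12.4 and 13.4 treated, overlapped as well.

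MARS differed by −1.40 (limma adjusted p = 9.42e-06), as it rose in HL60 and fell in Kasumi-1, where it stood at 55.1 and 53.4 FPKM untreated and 45.6 and 44.4 treated (log2 change −0.26, limma adjusted p = 0.00733). Of its neighbours on the other strand, ARHGAP9 rose there, at 32.7 FPKM untreated and 43.7 treated, and DDIT3, at 13.4 and 19.5, did not pass (limma adjusted p = 0.0873). GARS stood at 75.6 and 75.2 FPKM untreated and 127 and 131 treated in HL60 and at 94.97 and 96.3 FPKM untreated and 81.3 and 83.1 treated in Kasumi-1 (difference −0.98). TARS stood at 75.6 and 80.6 FPKM untreated and 67.2 and 68.7 treated in Kasumi-1 (difference −1.04). These 3 genes were the members that rose in one line and fell in the other. The differences held in all 15 alternative fits, but the Kasumi-1 falls did not pass in 1 of 16 fits for MARS, 4 for GARS and 8 for TARS (limma adjusted p 0.00231 to 0.0515, 0.00369 to 0.0658 and 0.00956 to 0.118).

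Among the mitochondrial genes MARS2 differed most (1.66, limma adjusted p = 2.41e-05), with 15.5 and 16 FPKM untreated and 12.1 and 13.6 treated in Kasumi-1. NARS2 differed by 1.23. PARS2, at 3.58 and 3.93 FPKM untreated and 4.03 and 3.42 treated in Kasumi-1, differed by 1.11 (limma adjusted p = 0.000646). EARS2, at 5.87 and 5.78 FPKM untreated and 4.73 and 4.81 treated in Kasumi-1, differed by 1.08. MARS2, NARS2 and EARS2 fell in both lines, by more in HL60, while PARS2 fell in HL60 and did not pass in Kasumi-1. AARS, HARS, NARS, RARS, HARS2, LARS2, RARS2, VARS2 and WARS2 did not pass the test of the difference, and the IARS difference was lost in 5 of 15 alternative fits (limma adjusted p 0.00268 to 0.0875).

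Before treatment the synthetases were on the whole higher in HL60. In untreated Kasumi-1 against untreated HL60, 14 cytosolic genes were lower and DARS and GARS higher, and 10 mitochondrial genes were lower and HARS2, IARS2 and WARS2 higher. Over all tested genes 69.7% differed, 35.9% higher and 33.8% lower in Kasumi-1. The median log2 difference was −0.36 over the cytosolic genes, −0.20 over the mitochondrial genes and 0.01 over all tested genes. WARS, at 65.8 and 69.2 FPKM in HL60 and 27.5 and 29.3 in Kasumi-1, differed most among cytosolic genes (log2 difference −1.22, limma adjusted p = 2.86e-06). FARSA, at 197 and 205 against 90.01 and 93.7 FPKM, followed with −1.12. CARS2 led the mitochondrial genes with −0.92. Line and serum cannot be told apart in these base levels, and 9 of the 29 calls were lost in some alternative fit.

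The order of levels was wide in each line. In untreated HL60 the highest cytosolic transcripts were FARSA (201 ± 5.31 FPKM, SD, n = 2), KARS (132 ± 2.03) and QARS (117 ± 4.84), and CARS was lowest (20 ± 0.0975). In treated HL60 MARS (168 ± 1.72) and TARS (154 ± 0.96) came first and FARSB last (7.25 ± 0.172). GARS (129 ± 2.60), YARS (127 ± 8.20) and WARS (126 ± 3.52) followed TARS without differing from each other beyond their spread. In Kasumi-1 QARS (126 ± 4.95) and KARS (120.1 ± 0.692) had the highest untreated means and also the highest treated ones, at 122 ± 4.42 and 96.6 ± 0.895. The untreated QARS libraries (123 and 129.9) and KARS libraries (121 and 119.6) of Kasumi-1 did not overlap. Of the mitochondrial genes CARS2 was highest in untreated HL60 (63.3 ± 4.53) and IARS2 in untreated Kasumi-1 (44.7 ± 0.906), and PARS2 was lowest in both (3.85 ± 0.228 and 3.75 ± 0.251).

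Most genes of a list of cytosolic cofactors fell in HL60. The list held the scaffold genes AIMP1, AIMP2 and EEF1E1 with AARSD1, DTD1, PSTK, SEPSECS, EEFSEC, SECISBP2 and EEF1A1, so it is wider than partners of the synthetases. Of these 10 genes 8 fell and none rose, against 37.6% and 36% of all tested genes, with a median log2 change of −0.65. AIMP2, a scaffold of the multi-synthetase complex, stood at 27.99 and 29.1 FPKM in the untreated libraries and 3.73 and 4.82 in the treated ones (log2 change −2.49, SE 0.10, limma adjusted p = 2.11e-06), and DTD1, which removes D-amino acids from tRNA, changed by −1.61. The other scaffolds moved less, EEF1E1 with −0.55 and AIMP1 with −0.07, which did not pass, so the 3 scaffold genes did not keep their ratio. In Kasumi-1 only DTD1 of the 10 fell (−0.60), against 16.2% of all tested genes, and the list's median was −0.15. AIMP2 stood there at 16.4 and 15.9 FPKM untreated and 13.6 and 13.99 treated.

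Of 13 partners of mitochondrial charging and translation 10 fell and none rose in HL60, against 37.6% and 36% of all tested genes. Their median log2 change was −0.78. PUS1, which makes pseudouridine in tRNA, went from 61.2 to 16.8 FPKM (log2 change −1.81). QRSL1 (−0.49) and PET112 (−0.998, now GATB), subunits of the amidotransferase that makes mitochondrial glutaminyl-tRNA, fell, and GATC, the remaining subunit, did not pass (−0.01). In Kasumi-1, 6 of the 13 fell, among them PET112 (−0.34), and GATC rose (0.24), against 16.2% and 10.1% of all tested genes.

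Genes of the amino acid response and of amino acid synthesis were mixed in HL60. Of 26 genes 14 rose and 10 fell, with a median of 0.21. Over all tested genes 36% rose and 37.6% fell, so falls were about as frequent in the list and rises more frequent. ATF4 itself stood at 447 and 409 FPKM in the untreated libraries and 653 and 610.0 in the treated ones (log2 change 0.56, SE 0.10, limma adjusted p = 0.00175). PPP1R15A, which recruits a phosphatase to eIF2α, rose by 3.92 and CHAC1, a glutathione-degrading ATF4 target, by 1.52. PYCR1 (−2.18) and ALDH18A1 (−1.72), enzymes of proline synthesis, fell most. ASNS, the asparagine synthetase of the amino acid response, rose by 0.47, while TRIB3, another ATF4 target, fell by 0.26. In Kasumi-1, 3 of the 26 rose and 11 fell, with a median of −0.21. Over all tested genes 10.1% rose and 16.2% fell, so rises were about as frequent in the list and falls more frequent. PPP1R15A (0.94) and CHAC1 (0.31) rose, CBS (−0.82) and PSAT1 (−0.51) fell, and ATF4, at 264 and 229 FPKM untreated and 215 and 192 treated, did not pass (limma adjusted p = 0.0836).

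**Figure D4:**
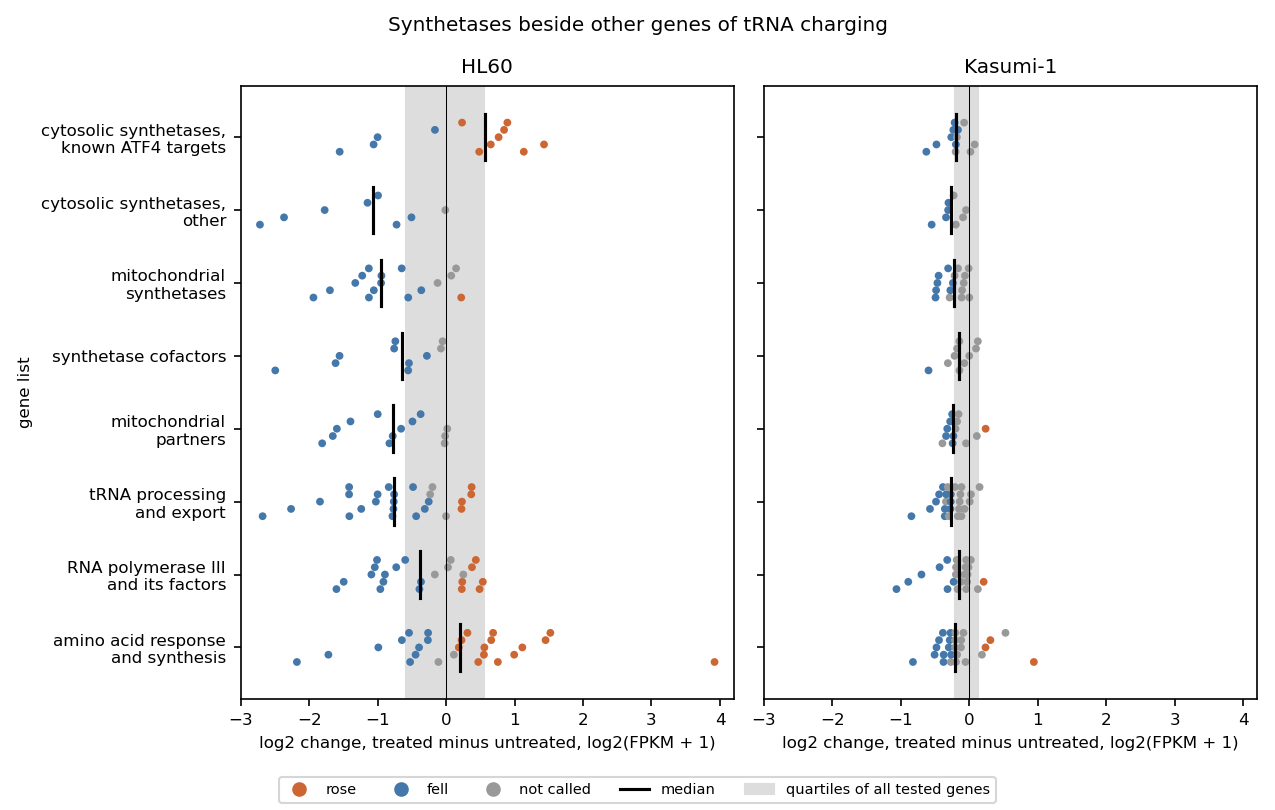
Log2 change with cinobufagin (x axis) of every tested gene of the synthetase and companion lists (y axis), coloured by call, with the list median as a line and the quartiles of all tested genes shaded, for HL60 and Kasumi-1. The cytosolic synthetases are split by whether they are known ATF4 targets, a list drawn up with earlier results of these data known. In HL60 the median of the known targets (0.57) lies right of 0. Those of the other cytosolic (−1.07) and the mitochondrial synthetases (−0.95) lie left of it. In Kasumi-1 all list medians lie between −0.27 and −0.15.

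MYC, which the series title names, fell in HL60 from 768 to 29.8 FPKM and in Kasumi-1 from 309 to 201. Its part in the changes of the synthetases was not tested.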

How the data were processed

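RNA from an RNeasy kit was sequenced from TruSeq Stranded mRNA libraries, per the labels' protocols. The authors deposited a table of FPKM values with 25593 gene rows, and bcl2fastq 2.20.0, HISAT2 2.1.0, Cufflinks 2.2.1 and build hg19 are named per the submitters' processing notes. The annotation, strand setting and filters were not given in the sources used here. All 8 columns were used.

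From these, log2(FPKM + 1) was fitted with limma 3.58.1 in R 4.3.3, with 1 mean per group over all 8 libraries, a variance trend and 4 residual degrees of freedom. The test covered the 12511 genes with 1 FPKM or more in 2 or more libraries and left out 13082, with Benjamini-Hochberg adjustment over the tested genes. Fold changes on this scale understate changes of low genes. A permutation of 2 against 2 libraries cannot give p below 0.33, so none was run. The fit was checked on simulated data in which 200 of 12027 genes changed, far fewer than were called in HL60. It recovered 87 of 100 log2 changes of 1 and 45 of 100 of 0.5, and 7 of its 139 calls were false. A member that did not pass may thus still have changed.

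The members and lists were chosen with earlier results of these data known. Values in every library are given for up to 4 members per direction, line and compartment with the largest called changes, for up to 4 per compartment with the largest called differences between lines, and companion lists are represented by up to 2 members per direction and line. Some genes that the rule names are left out and not reported here. AIMP1, EEF1E1, QRSL1, ATF4, ASNS, TRIB3 and the overlapping neighbours were added for their roles after their values were seen. Alternatives were other filters, a pseudocount of 0.1, median ratio rescaling, quantile normalization, no variance trend, each line alone, a replicate block and leaving out each library.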

Additional observations from a re-analysis of the deposited data

Results flagged for a closer look

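For 27 of the 36 synthetases the change with cinobufagin differed between the lines, by limma's test of the Kasumi-1 change minus the HL60 change with Benjamini-Hochberg adjustment over all tested genes, of which 63.1% passed. Each value below is that difference on the log2(FPKM + 1) scale. Serum share differed with the line, so line and serum cannot be told apart in these values.

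Among cytosolic genes that rose in HL60, the change was lower in Kasumi-1 for CARS (−1.41), MARS (−1.40), WARS (−1.08), TARS (−1.04), GARS (−0.98), YARS (−0.85) and SARS (−0.56). The sole mitochondrial gene of this kind was YARS2 (−0.29), whose difference was lost in 5 of 15 alternative fits (limma adjusted p 0.0186 to 0.104).

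Among cytosolic genes that fell in HL60, the fall was smaller or not called in Kasumi-1 for FARSA (2.27), FARSB (2.17), QARS (1.72), LARS (1.32), VARS (0.92), DARS (0.69), EPRS (0.58), KARS (0.41) and IARS (0.37). The enzyme subunits FARSA and FARSB differed by a like amount, although FARSB fell in Kasumi-1 and FARSA did not pass there. Among mitochondrial genes the same was so for MARS2 (1.66), NARS2 (1.23), PARS2 (1.11), EARS2 (1.08), IARS2 (0.95), AARS2 (0.86), TARS2 (0.84), CARS2 (0.74), SARS2 (0.63) and FARS2 (0.34, lost in 4 of 15 alternative fits, limma adjusted p 0.0117 to 0.0708).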

How the results depend on the processing

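The 8 cytosolic rises and 12 mitochondrial falls in HL60 and the call of 30 of its 32 called members stood in every alternative, except that PARS2 was not tested with a filter at FPKM of 5. Of the 18 Kasumi-1 calls 9 stood in every alternative, of the 27 differences between lines 24, and of the 29 base differences 20.

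The count of mitochondrial members rising in HL60 (1) was 0 after quantile normalization and 0 to 1 when libraries were left out, as was the count with a lower change in Kasumi-1. Fitting Kasumi-1 alone gave 6 cytosolic and 3 mitochondrial falls in place of 11 and 7, with 398 rises and 642 falls over all genes, and leaving out libraries gave 7 to 11 and 4 to 7. Base differences numbered 1 to 3 mitochondrial genes higher and 6 to 9 lower in Kasumi-1 when libraries were left out, against 3 and 10. The cytosolic minus mitochondrial difference of medians in HL60 (0.61) was 0.70 with a pseudocount of 0.1, 0.45 after quantile normalization and 0.55 to 0.67 without single libraries. In Kasumi-1 (0.020) it was 0.033 with a filter at 5, 0.054 with a pseudocount of 0.1, 0.033 after quantile normalization and −0.031 to 0.020 without single libraries, with −0.031 without untreated replicate 1 and −0.012 without treated replicate 1. The causes were not tested.

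Over all genes in Kasumi-1, 1266 rose and 2026 fell, against 1679 and 1518 after median ratio rescaling and 1675 and 1793 after quantile normalization. The labels do not say that a replicate number pairs libraries, and the deviations of same-numbered libraries correlated between groups with Pearson's r of 0.13 to 0.33 and Spearman's rho of 0.29 to 0.49. A replicate block gave 1867 rises and 2882 falls over all genes in Kasumi-1, and 16 cytosolic falls in place of 11, with FARSA, HARS, VARS, WARS and YARS added. Read totals are unknown, so depth limits on low members such as PARS2 could not be set.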

Other observations

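Genes that make and trim tRNA were described by the same fit. Of 25 tested genes of tRNA processing and export (26 listed), 18 fell and 4 rose in HL60, against 37.6% and 36% of all tested genes, with a median log2 change of −0.76. RPP40, a subunit of RNase P and MRP, went from 7.91 to 0.383 FPKM (log2 change −2.68). TSEN34 (0.37), of the tRNA splicing endonuclease, and RPP30 (0.37), also of RNase P and MRP, rose. In Kasumi-1, 11 of the 25 fell and none rose, against 16.2% and 10.1% of all tested genes, with a median of −0.27. RPP40 (−0.85) and POP1 (−0.58) led the falls.

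Of 22 genes of RNA polymerase III, which transcribes tRNA, and its factors, 12 fell and 6 rose in HL60 (median −0.38), where 37.6% of all tested genes fell and 36% rose, so the rises were no more frequent than over the table. POLR3GL changed by −1.60, GTF3A by −1.49, CRCP by 0.54 and POLR3F by 0.49. In Kasumi-1, 7 fell and GTF3C5 rose (0.21), against 16.2% and 10.1% of all tested genes, with a median of −0.15. POLR3G (−1.06) and GTF3C6 (−0.89) fell most there. POLR3G stood at 5.21 and 5.82 FPKM untreated and 2.12 and 2.11 treated in Kasumi-1.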
